A study of Mus musculus with 8 samples.

Results

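Mitoferrin-1, encoded by Slc25a37, and the genes that handle iron and heme around it were followed in retinas of aged mice. A set of 10 genes was chosen, and 19 probes of the array mapped to them through their transcript accessions, out of 56605 probes in all. Slc25a37 was selected on its log2 fold change between the genotypes in these same data, where it was lower on the arrays labelled Mrp4-null, so its values are described without a test. The other 9 genes were chosen for their known roles in iron and heme handling, and the question was whether they, and above all the paralog Slc25a28, also differed between the genotypes. Retinal RNA came from homozygous Mrp4 knockout mice and from wild-type mice, all 46 to 55 weeks old. The study's methods give a C57BL/6J background for the knockout line and name no treatment and no tissue-specific deletion for the retinal samples. Each genotype was represented by 4 samples, hybridized singly to one-color Agilent arrays, and the methods do not make clear whether each sample pooled several mice. The p-values therefore measure the spread between these samples.

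Iron reaches cells bound to transferrin or as the free ferrous ion, is stored in ferritin, and leaves through ferroportin. Within the cell, mitoferrins carry it across the inner mitochondrial membrane, where it enters iron-sulfur clusters and heme. Mitoferrin-1 is best known from developing red blood cells, and mitoferrin-2, encoded by Slc25a28, is found widely. The visual cycle that serves photoreceptors holds an iron-dependent enzyme, and an excess of iron in the retina is harmful through oxidative reactions. Much of the control over ferritin, ferroportin and the transferrin receptor acts on translation or on the stability of the mRNA, and the arrays measure only the level of the mRNA.

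The RefSeq table (GRCm38.p6) held a promoter for 6 of the 10 genes, namely Slc25a28, Tfrc, Fth1, Ftl1, Alas1 and Alas2, while Slc25a37, Slc40a1, Hmox1 and Slc11a2 had no entry. The 250 bases before the transcription start are printed for Slc25a28, the paralog on which the question turns, and for Alas2, the enzyme of the red cell lineage whose signal is set beside the hemoglobins further on. Capitals mark AGATAA, a motif of the GATA factors of that lineage, here read on the reverse strand as TTATCT. The Slc25a28 stretch is chr19:43674882-43675131 on the minus strand and the Alas2 stretch is chrX:150547167-150547416 on the plus strand.
Slc25a28: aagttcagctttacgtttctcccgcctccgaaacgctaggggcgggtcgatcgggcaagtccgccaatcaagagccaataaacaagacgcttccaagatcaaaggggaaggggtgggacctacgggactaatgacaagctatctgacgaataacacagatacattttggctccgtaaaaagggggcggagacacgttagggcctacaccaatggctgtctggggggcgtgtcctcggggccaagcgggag
Alas2: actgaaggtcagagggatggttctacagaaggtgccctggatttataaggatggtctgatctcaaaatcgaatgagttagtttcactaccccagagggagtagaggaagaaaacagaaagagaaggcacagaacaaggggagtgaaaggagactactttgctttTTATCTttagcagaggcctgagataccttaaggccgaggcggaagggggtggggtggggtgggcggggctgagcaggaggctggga
The motif was searched as AGATAA on both strands, and it was held by 1 of the 9 listed promoters of these genes, that of Alas2, with its first base 86 bases before the start. Among all 32851 promoter stretches of this length, 9.99% held it. The match describes the letters of the window.

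Between 37343 and 39581 probes per array were well above background, and the 75th percentile of the processed signal was between 678 and 1082. The genotypes were compared with limma over 37085 retained probes, and calls needed a change of 1.5-fold or more together with a Benjamini-Hochberg adjusted p under 0.05. Abcc4, the gene for MRP4, stood 15.1-fold higher on the arrays labelled Mrp4-null. Its log2 fold change was 3.92, with a standard error (SE) of 0.14 (limma adjusted p = 1.36e-05). This goes against the label, and directions are given by the labels as deposited. Where the probe lies relative to the deleted part of the gene was not examined. Y-linked genes gave signals well above background on 3 arrays of the wild-type group and 0 of the other, except that 1 Kdm5d probe did so on 2. Xist, expressed from the inactive X chromosome, was above background for all 4 Mrp4-null samples and for wild-type samples 1 and 2, so that wild-type sample 2 carried both. The part of sex in the results was not tested. The 8 rod markers, which define the tissue, were well above background on all arrays, with a mean log2 signal of 16.36 to 16.50. The 9 lens markers had a summed signal of 2266 to 25535 under the Mrp4-null label and 6763 to 60284 in wild-type. The arrays shared a slide on which each genotype had its own row, so an effect of the row cannot be told apart from one of the genotype. In bulk tissue, fewer cells of a type and less RNA per cell cannot be told apart.

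Slc25a37 was lower on the arrays labelled Mrp4-null by both of its retained probes. For probe A_51_P343429 the normalized log2 signal was 10.19, 10.58, 10.37 and 10.39 on the 4 Mrp4-null arrays and 11.28, 11.30, 11.63 and 11.55 on those of the 4 wild-type samples. The highest Mrp4-null array lay below the lowest wild-type array. The means were 10.38 ± 0.16 (SD, n = 4) and 11.44 ± 0.18 (SD, n = 4), with a log2 fold change of -1.06, or 2.08-fold. For probe A_55_P2032445 the log2 signal was 4.44, 5.54, 5.14 and 5.07 under the Mrp4-null label and 7.83, 7.72, 8.44 and 7.99 in wild-type. Its arrays did not overlap either, and the means of 5.05 ± 0.46 (SD, n = 4) and 7.99 ± 0.32 (SD, n = 4) were apart by a log2 fold change of -2.95, or 7.70-fold. Under the Mrp4-null label this probe was close to background, with processed signals of 24.2 to 42.2, although it stayed well above background on all 4 of those arrays, where the lowest signal so judged was 11.8 to 12.4. The probes of this single transcript accession thus gave falls of different size, and with the normexp background correction the larger one was -1.76 on the log2 scale.

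The third Slc25a37 probe, A_52_P507688, did not pass the filter on dim probes. It was well above background on 0 of 4 Mrp4-null arrays and on 3 of 4 wild-type arrays, with processed signals of 9.76 to 13.6 and 10.9 to 33.4. No difference is given for it. Across the 8 arrays the 2 retained probes followed each other with a Pearson correlation of 0.994, and their deviations from the genotype means with 0.921. These are descriptions over 8 arrays that share normalization.

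**Figure D1:**
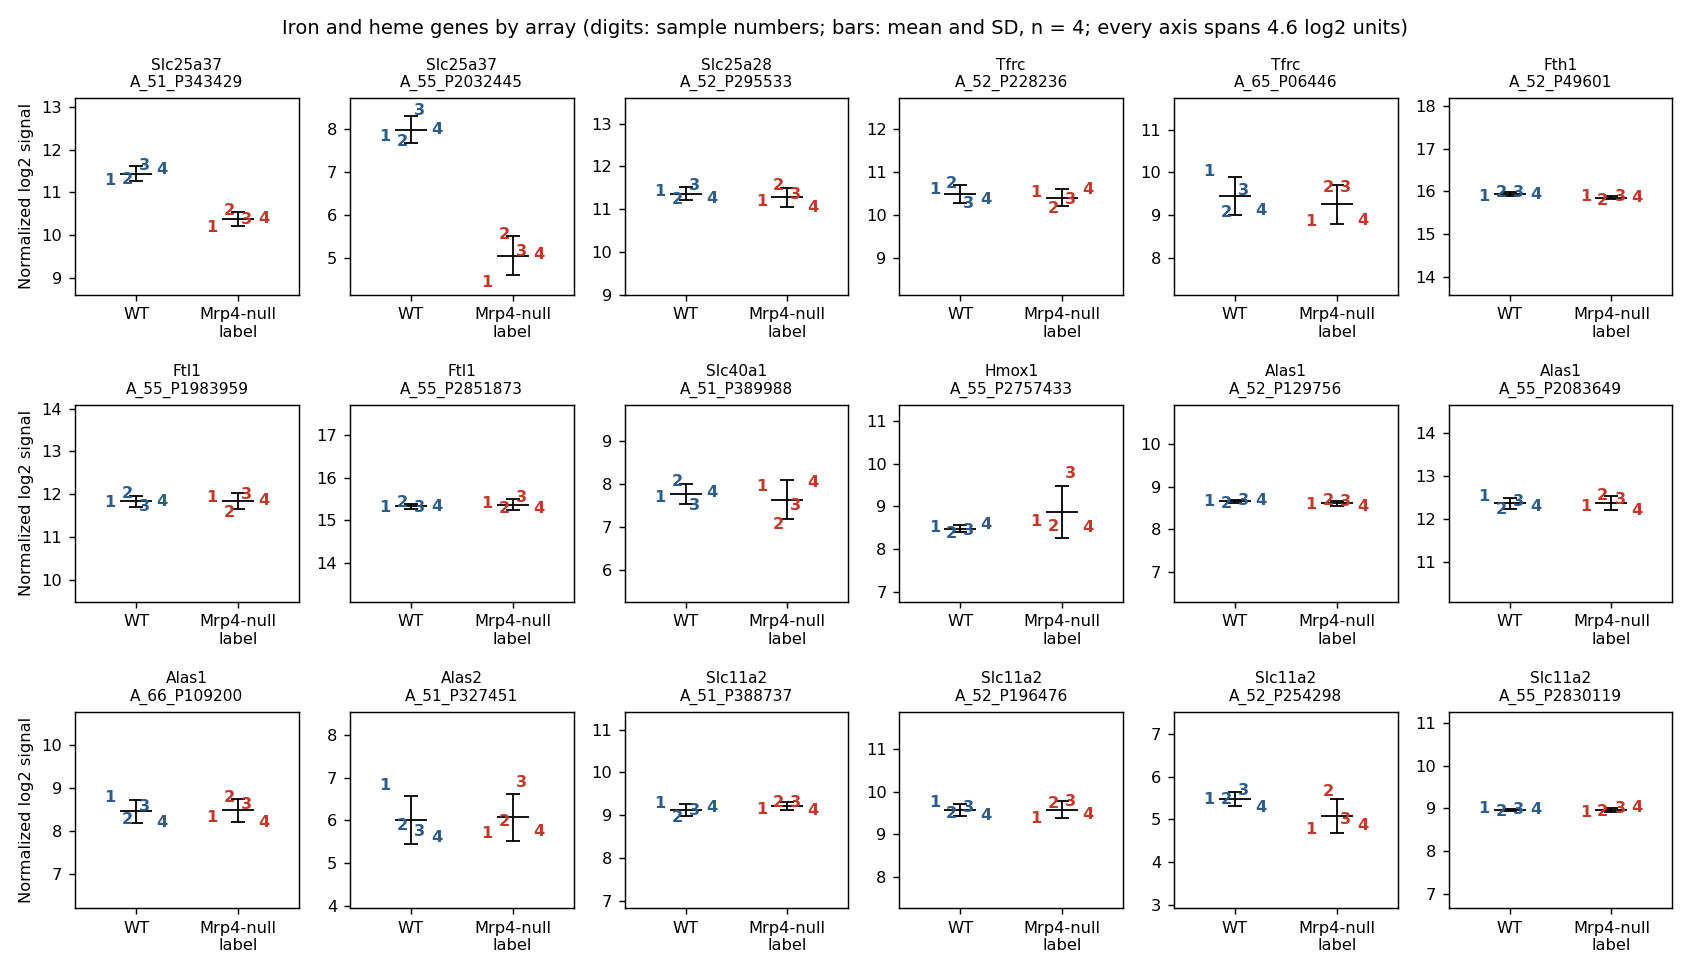
Normalized log2 signal of the 18 retained probes of iron and heme genes on each array, with digits for the sample numbers of the wild-type and Mrp4-null groups and bars for the mean and SD (n = 4). The groups part only for both Slc25a37 probes, and Mrp4-null sample 3 stands high for Hmox1.

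Slc25a28, the gene for mitoferrin-2, did not stand higher where Slc25a37 was lower. Its single probe, A_52_P295533, had log2 signals of 11.18, 11.54, 11.34 and 11.04 on the Mrp4-null arrays and 11.41, 11.23, 11.55 and 11.24 in wild-type. The groups overlapped, with 2 of the 4 Mrp4-null arrays inside the range of the wild-type arrays and the other 2 below it. The means were 11.28 ± 0.22 (SD, n = 4) and 11.36 ± 0.15 (SD, n = 4), with a log2 fold change of -0.08 (SE 0.13, limma adjusted p = 1.00). The 95% interval of the difference ran from -0.37 to 0.21 on the log2 scale, or from 0.772-fold to 1.15-fold. A rise of the paralog by more than 1.15-fold therefore lay outside the interval, and a smaller rise or a fall of up to that lower limit lay within it. No further retained gene of mitochondrial iron or iron-sulfur cluster assembly was called. Abcb10, an inner membrane transporter known to stabilize mitoferrin-1, had a log2 fold change of -0.03 (95% interval -0.25 to 0.18). Abcb8, another mitochondrial transporter of this list, was at 0.18 (SE 0.12, limma adjusted p = 1.00).

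Over all 16 retained probes of the other 9 genes, limma called 0 changed, the local pooled error test named in the study's methods, here with Benjamini-Hochberg adjustment, called 0, and 0 had an unadjusted p under 0.05. Of all retained probes, 0.545% were called by limma, 0.256% as higher and 0.289% as lower on the arrays labelled Mrp4-null, and 6.46% had an unadjusted p under 0.05, so a count of 0 among 16 is near the background. Among these probes 8 were higher and 8 were lower on average, and their median log2 fold change was 0.00030, against -0.0093 over all retained probes. The median size of the difference was 0.07 on the log2 scale for these probes and 0.08 over all. The genotypes were fully apart for 0 of the 16. Of all retained probes, 4.79% had genotypes that were fully apart, so this count too is near the background. The Mrp4-null arrays were higher for 2.44% of all retained probes and lower for 2.36%. For 11 of the 16 probes the 95% interval lay within 1.5-fold in either direction, and for 14 a rise of that size was outside it.

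**Figure D2:**
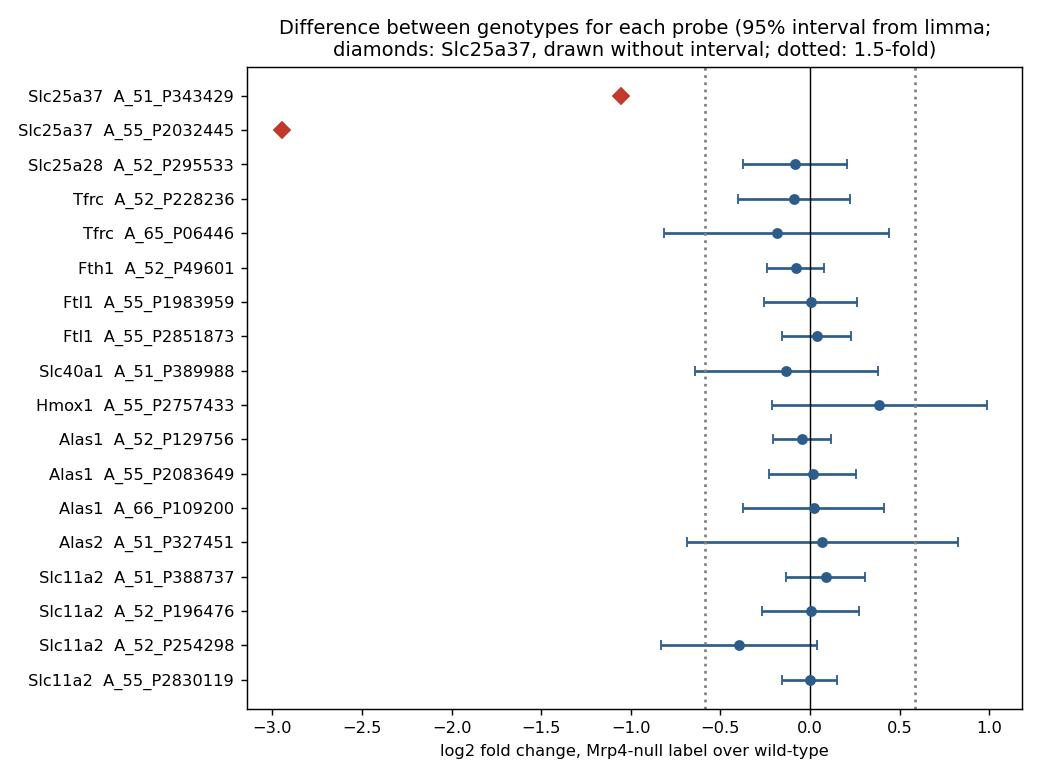
Log2 fold change of each retained probe, with the 95% interval from limma for all but Slc25a37, whose diamonds are a description, and dotted lines at 1.5-fold. The intervals of the other 16 probes all cross 0, and those of Tfrc probe A_65_P06446, Slc40a1, Hmox1, Alas2 and Slc11a2 probe A_52_P254298 reach past a dotted line.

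Iron uptake was covered by Tfrc, the transferrin receptor, and Slc11a2, the divalent metal transporter DMT1. Tfrc probe A_52_P228236 had log2 signals of 10.51, 10.14, 10.36 and 10.58 on the Mrp4-null arrays and 10.60, 10.73, 10.27 and 10.36 in wild-type. The groups overlapped, with a log2 fold change of -0.09 (95% interval -0.40 to 0.22). The other Tfrc probe, A_65_P06446, spread more widely, from 8.85 to 9.66 under the Mrp4-null label and from 9.07 to 10.03 in wild-type, with a log2 fold change of -0.19 (95% interval -0.82 to 0.44). Of the 4 probes of Slc11a2, 3 had log2 fold changes of -0.0032 to 0.09. The fourth, A_52_P254298, had log2 signals of 4.77, 5.66, 5.00 and 4.87 against 5.47, 5.46, 5.67 and 5.29. This probe was close to background, with processed signals of 30.4 to 43.5 under the Mrp4-null label and 31.7 to 48.3 in wild-type. The Mrp4-null arrays except the second lay below the wild-type arrays, and the log2 fold change of -0.40 was not called (SE 0.19, limma adjusted p = 0.844). Without the second Mrp4-null array it was -0.60 (limma adjusted p = 0.0932), with the normexp background correction it was -0.12, and the adjusted p ran from 0.0932 to 1.00 over the alternatives. A difference of this size was seen with 1 of the 4 probes of the gene.

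Iron storage was covered by the ferritins. Fth1, the heavy chain that oxidizes iron as it is stored, had log2 signals of 15.89, 15.80, 15.89 and 15.85 on the Mrp4-null arrays and 15.87, 15.97, 15.97 and 15.94 in wild-type. The ranges overlapped through the first wild-type array, and the log2 fold change was -0.08 (95% interval -0.24 to 0.08). Ftl1, the light chain, differed by 0.04 (95% interval -0.16 to 0.23) with probe A_55_P2851873, and by 0.0039 (95% interval -0.26 to 0.26) with probe A_55_P1983959, which ran from 11.57 to 12.00 under the Mrp4-null label and from 11.70 to 12.01 in wild-type. Both probes overlapped between genotypes. A change of 1.5-fold lay outside the intervals of all 3 ferritin probes. Iron export was covered by Slc40a1, which encodes ferroportin. Its log2 signals were 7.96, 7.05, 7.51 and 8.03 on the Mrp4-null arrays and 7.70, 8.07, 7.49 and 7.81 in wild-type, giving a log2 fold change of -0.13 (95% interval -0.64 to 0.38). The lowest value was on the second Mrp4-null array, and without it the log2 fold change was 0.06.

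Heme synthesis begins with the aminolevulinate synthases, Alas1 in most cells and Alas2 in the red cell lineage. The 3 probes of Alas1 had log2 fold changes of -0.04, 0.01 and 0.02. One of them, A_55_P2083649, was at 12.30, 12.54, 12.46 and 12.19 on the Mrp4-null arrays and 12.53, 12.22, 12.40 and 12.29 on the wild-type arrays. Alas2 was well above background on all 8 arrays, at 5.69, 5.97, 6.89 and 5.75 under the Mrp4-null label and 6.82, 5.88, 5.74 and 5.60 in wild-type. The third Mrp4-null array and the first wild-type array stood above the other 6, and the spread within each genotype was wider than the difference between them (log2 fold change 0.07, 95% interval -0.69 to 0.82). Its sign turned to -0.20 without the third Mrp4-null array, and it was 0.34 without the first wild-type array. Hba-a1, an alpha globin, was highest on the same 2 arrays and next on the second Mrp4-null array, at 13.46, 14.08, 14.24 and 13.51 on the Mrp4-null arrays and 14.24, 13.51, 13.39 and 13.47 in wild-type. The mean over the 7 retained of 14 red blood cell markers ranged from 10.72 to 11.48 under the Mrp4-null label and from 10.73 to 11.48 in wild-type, while the other 7, Hbb-bs, Slc4a1, Ahsp, Epb42 and Rhag among them, had no retained probe. Their summed signal was 31985 to 49586 and 22458 to 49204. Over the 8 arrays the Pearson correlation with this mean was 0.826 for Alas2 and -0.162 for Slc25a37 probe A_51_P343429. It was higher for 4 probes of other genes, at 0.933 for Slc11a2 A_52_P196476, 0.930 and 0.921 for Alas1 A_55_P2083649 and A_66_P109200, and 0.879 for Tfrc A_65_P06446. These are descriptions without a test. The part of blood in the level of Alas2 was not tested.

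Heme breakdown was covered by Hmox1, the inducible heme oxygenase, and it stood out on a single array. Its log2 signals were 8.65, 8.54, 9.77 and 8.51 on the Mrp4-null arrays and 8.52, 8.38, 8.44 and 8.58 in wild-type. The third Mrp4-null array was high and the other 7 arrays lay within a narrow band. The log2 fold change was 0.39 (SE 0.26, limma adjusted p = 1.00), and without that array it was 0.08. On the same array the 8 retained of 9 markers of macrophages and microglia had a mean log2 signal of 9.49, against 8.24 to 8.49 on the other Mrp4-null arrays and 8.36 to 8.49 on the wild-type arrays. Their summed signal was 3150 to 7617 under the Mrp4-null label and 3128 to 4209 in wild-type, and Cd163 had no retained probe. Cd68, a lysosomal protein of macrophages, was at 9.12 there and at 7.39 to 7.67 on the other arrays. The part of these cells in the level of Hmox1 was not tested.

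**Figure D3:**
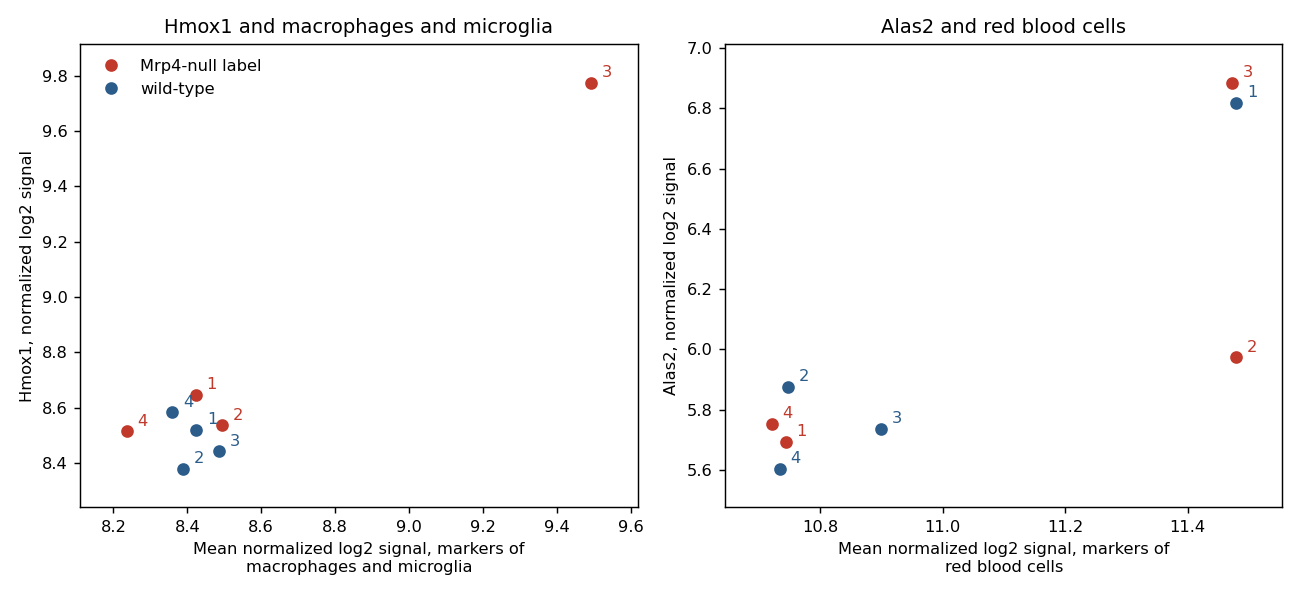
Normalized log2 signal of Hmox1 and Alas2 on each array against the mean log2 signal of macrophage and red blood cell markers, with sample numbers beside the points. Mrp4-null sample 3 stands at 9.77 for Hmox1 and 9.49 for the macrophage markers, and Alas2 was highest on Mrp4-null sample 3 and wild-type sample 1, where the red cell markers were high, as they were on Mrp4-null sample 2.

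The wider pathway was followed through 7 lists with 67 genes, 57 of them beyond the 10 described so far. A retained probe was present for 53 of the 57. Limma called 0 of them changed by any retained probe, and the local pooled error test also called 0. Unadjusted p-values and fold changes were read from the probe of each gene with the highest mean signal. By these probes, 2 genes had an unadjusted limma p under 0.05. Of all 16093 named genes with a retained probe, 0.652% had a probe called. The median log2 fold change of the 53 genes was -0.01, with 23 higher and 30 lower. That share of 2 in 53 is below the 6.46% of all retained probes. The genes were Hamp, which encodes the iron hormone hepcidin, and Hamp2, a closely related copy whose role in iron handling is less clear, and their probes may share signal. Hamp was at 5.97 ± 0.26 (SD, n = 4) on the Mrp4-null arrays and 6.30 ± 0.16 (SD, n = 4) in wild-type, a log2 fold change of -0.34 (SE 0.14, limma adjusted p = 0.729). Hamp2 was at 5.03 ± 0.32 (SD, n = 4) and 5.52 ± 0.19 (SD, n = 4), with a log2 fold change of -0.49 (SE 0.17, limma adjusted p = 0.532). Neither was called, and the arrays of the genotypes overlapped for both.

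In the list of iron uptake, 6 of the 7 further genes had a higher mean on the Mrp4-null arrays and 0 were called, with a median log2 fold change of 0.19. Trf, the gene for transferrin, was at 0.39 (SE 0.21, limma adjusted p = 0.922), and the metal transporter gene Slc39a8 was at 0.30 (SE 0.20, limma adjusted p = 1.00). In the list of iron export and hepcidin, 5 of 8 further genes were retained, and Cp had the largest difference by the probe that represents each gene. Cp encodes ceruloplasmin, which oxidizes iron as it leaves the cell. It was at 11.36, 11.58, 13.25 and 11.36 on the Mrp4-null arrays and 11.53, 11.04, 11.10 and 10.97 in wild-type. The log2 fold change of 0.73 (SE 0.40, limma adjusted p = 0.926) was 0.27 without the third Mrp4-null array, which lay far above the rest. The 4 retained probes of Cp ran from -0.04 to 0.73, and none was called. The same array was the highest for Trf, at 13.78, and for Hp, the hemoglobin-binding haptoglobin, at 6.03 against 3.78 to 4.57 on the others. Without it the log2 fold change of Trf was 0.17 in place of 0.39 and that of Hp was 0.16 in place of 0.62. Hmox1, Cp, Trf and Hp were therefore all highest on the array with the most signal from macrophage markers. These companions were singled out after their values had been seen.

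Apart from Hp, the other lists held small differences, and 0 of their genes were called. The 10 further genes of heme synthesis ranged from -0.12, for Urod, to 0.05 on the log2 scale, with 5 higher and 5 lower, and Ppox was at -0.08. The 15 further genes of mitochondrial iron and iron-sulfur clusters had a median of -0.03, with 5 higher and 10 lower. The 3 genes of iron sensing, Aco1, Ireb2 and Fbxl5, lay at -0.06, -0.06 and -0.04. Aco1 and Ireb2 encode the proteins that bind iron-responsive elements, and Fbxl5 encodes the ubiquitin ligase subunit that removes them. In iron storage, Ncoa4, the receptor that brings ferritin to lysosomes, was at -0.09 and the iron chaperone gene Pcbp1 was at -0.03. Among the 10 further genes of heme breakdown and transport, Blvrb, a biliverdin reductase, was at -0.15 (SE 0.08, limma adjusted p = 0.918).

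**Figure D4:**
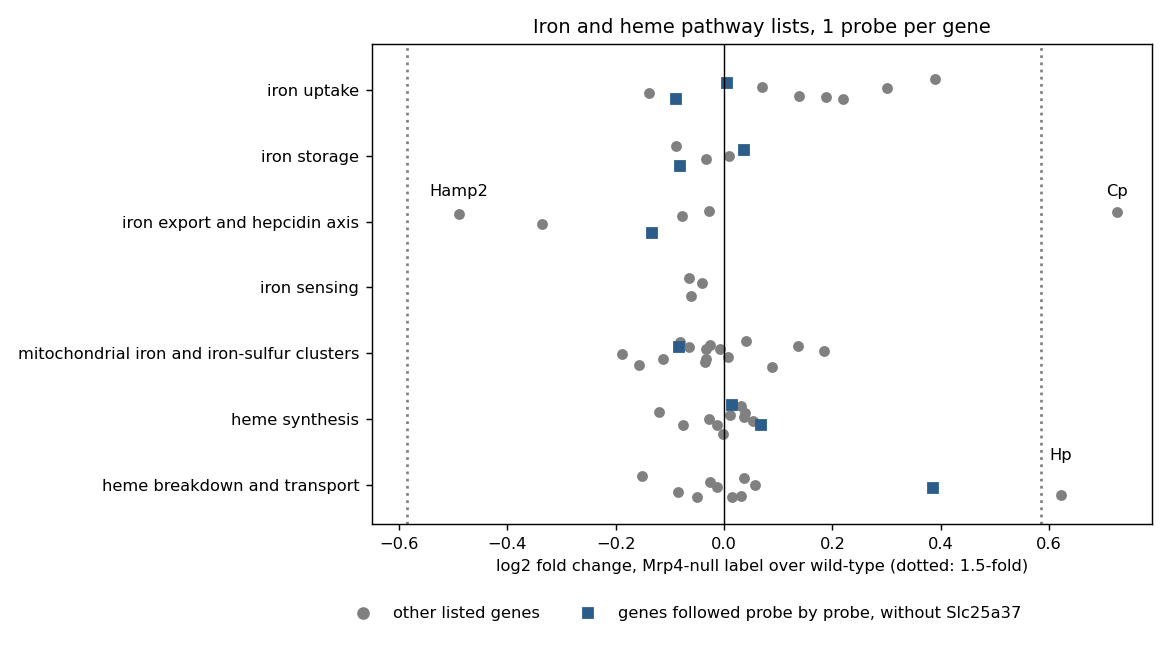
Log2 fold change of 1 probe per gene for 7 lists of iron and heme genes, with squares for the genes followed probe by probe, circles for the further genes and dotted lines at 1.5-fold. Cp and Hp lie past the line on the right, at 0.73 and 0.62, and neither was called.

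Slc25a37 differed from the other 9 genes in its place on the genome. It lies on chromosome 14 (GRCm38.p6), as does Abcc4, with 123 genes measured here between them. Of the 10 measured genes on either side of it, 4 had a probe called changed by limma, against 0.652% of all measured genes and 0 of 20 around each of the other 9 genes, Hmox1 on chromosome 8 included. Over the whole of chromosome 14, 20 of 558 measured genes had a called probe, and on chromosome 8, 35 of 837. The 4 called neighbours all lay on the same side of Slc25a37. The closest of them, Gm31896, had passed the filter only through the wild-type arrays, where it was high, so its call adds no support to this count, which leaves the other 3. The annotated interval of this long noncoding RNA gene overlaps that of Slc25a37. Its probe had log2 signals of 1.39, 1.39, 1.64 and 2.41 on the Mrp4-null arrays, where it was not well above background on any, and 5.43, 5.13, 5.29 and 5.49 in wild-type. It was at least 3.78-fold lower, where the wild-type mean was set against the lowest signal judged well above background on each Mrp4-null array. The limma adjusted p of 1.92e-04 belongs to the fitted log2 fold change of -3.63, and the bound itself was not tested. The next called gene in order, Entpd4, a nucleotide-hydrolyzing enzyme of intracellular membranes, had 3 probes with lower means. Of these, 2 were called, at -0.99 and -0.79 (adjusted p = 0.0011 and 0.0072 from limma), and the third, at -1.05 (SE 0.30, limma adjusted p = 0.349), was not, its genotypes overlapping. Further along, 4930480K23Rik was at -3.44 (SE 0.31, limma adjusted p = 0.0014), and Tnfrsf10b, a death receptor, was higher, at 0.80 (SE 0.13, limma adjusted p = 0.035). Other genes on this side were not called. Gm16677 was at -0.04, Chmp7 at 0.04 and R3hcc1 at 0.24. Gm16867 was at -1.26 (SE 0.27), with 3 of the 4 Mrp4-null arrays well above background. It had thus passed the filter only through the wild-type arrays, where it was high, so its difference adds no support here. Rhobtb2 was at -0.44 (SE 0.08) and Loxl2, a lysyl oxidase, at -0.38 and -0.16. The genotypes were fully apart for Rhobtb2, R3hcc1 and the first Loxl2 probe. On the other side, the 13 probes of 10 genes ranged from -0.33 to 0.31, and the arrays of the genotypes overlapped for all of them. The nearest of these were 1700092C10Rik at -0.09, Stc1 at -0.24, Adam28 at -0.33, A230070E04Rik at -0.15 and the neurofilament gene Nefm at -0.17 and -0.14.

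**Figure D5:**
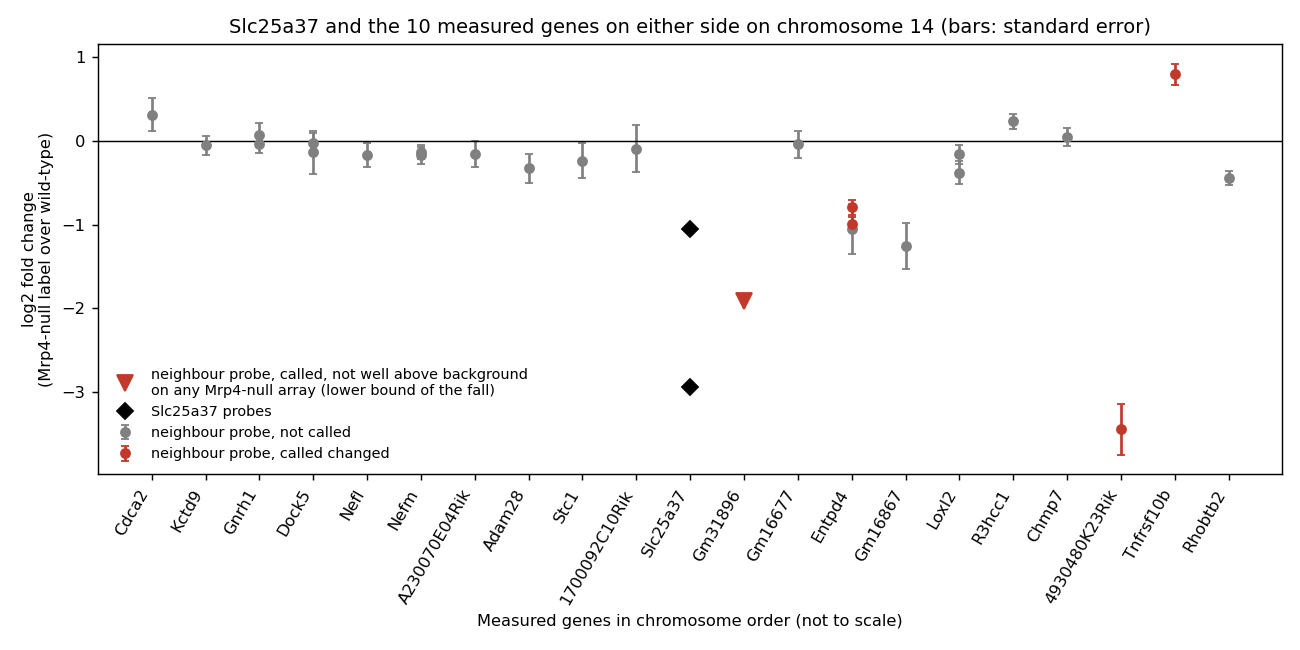
Log2 fold change of Slc25a37 (diamonds) and of the 10 measured genes on either side on chromosome 14, in gene order, with standard errors; the triangle is the lower bound for Gm31896. The called genes lie on one side, and Tnfrsf10b is the one that was higher.

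Over the 8 arrays, the named probes most like Slc25a37 probe A_51_P343429 were those of Cbln1, Gadd45gip1, Ccar2, Kbtbd11 and Snhg3, with Pearson correlations of 0.986, 0.985, 0.984, 0.979 and 0.978. Cbln1, Gadd45gip1 and Kbtbd11 lie on chromosome 8, Ccar2 on chromosome 14 and Snhg3 on chromosome 4. The gap between the genotypes enters this measure, and it was -0.25 for Cbln1 and -2.13 for Kbtbd11 on the log2 scale. For deviations from the genotype means, the correlations of the same probes were 0.747 to 0.853. Among the iron and heme genes, the probe most like it was Slc11a2 A_52_P254298, with 0.713, followed by Fth1 with 0.664, and Slc25a28 was at 0.380. For deviations from the genotype means these were 0.635, -0.153 and 0.543, so that the sign turned for Fth1, and the values of the 16 probes ran from -0.861, for Tfrc A_52_P228236, to 0.651. The points share the arrays, their normalization and the signal strength of each hybridization, and no test was made.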

How the data were processed

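Per the labels, the scanner output came from Agilent Feature Extraction 11.0.1.1. In the deposited files, intensity values carry a background subtraction and spatial detrending made within each array, with no normalization between arrays. The deposited table of values holds the mean intensity per probe, outlier spots included. Flags of 0 or 1 per spot, other values in the deposited files, marked outliers and signals well above background.

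Here, outlier spots (78 to 143 per array among 59305 that were not controls) and controls were left out, and log2 signals were averaged per probe. Retained probes exceeded background by the software's flag on each measured array in 1 genotype or both, given 3 or more measured there and 2 or more in the other. Values were quantile-normalized, as in the study's methods, and fitted with limma 3.58.1 in R 4.3.3, with genotype as the only term. Accessions named 32994 probes (58.3%) through the GRCm38.p6 table. The array design carries an older build, so no array coordinates are given. The genes, the lists and the naming rule were chosen with earlier results of these data known. Named are all probes of the 10 genes, called genes and the 2 largest differences of each list, the 5 probes most like Slc25a37 and its neighbours, 5 on each side. Hamp, Abcb10, Fbxl5 and the neighbours from the sixth to the tenth place were added after their values were seen, and 1 gene that the rule names is not reported here. The mean spot signal was not used, so normexp (offset 50) took the median spot and background signals. Fits were tested on simulated data. Alternatives were other normalizations, filters, tests, thresholds, the sample number as a block and each array left out. The number of arrays limits the precision. The sex-linked markers and the marker lists of rods, lens, macrophages and red blood cells are given in the report, and those of pigment epithelium, endothelium and Müller glia in the closing section.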

Additional observations from a re-analysis of the deposited data

Results flagged for a closer look

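For each iron and heme gene and each marker list, the 4 levels within a genotype were searched for a single array lying apart, 156 searches in all. The measure was the distance of the outermost array to its neighbour as a share of the range, and 10 searches exceeded the 95% critical value of Dixon for 4 samples, which about 1 in 20 would by chance. The ratio was 0.894 for Hmox1 and 0.881 for Cp, both with the third Mrp4-null array highest. The second Mrp4-null array was highest for Iscu (0.834), Lyrm4 (0.839) and Slc46a1 (0.865), and lowest for the mean of the endothelium markers (0.939) and of the Müller glia markers (0.856). The third wild-type array was lowest for Cybrd1 (0.988) and highest for Fdxr (0.833). The first wild-type array was highest for the mean of the rod markers (0.865), at 16.48 against 16.36 to 16.38.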

How the results depend on the processing

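Of 288 values recomputed for the 16 probes other than those of Slc25a37, 0 were called under any of 18 alternatives, and 32, over 9 probes, had the other sign. The log2 fold change of Slc25a28 was -0.17 to -0.0053 over these alternatives. Both Slc25a37 probes stayed lower in all 36 values, at -1.12 to -0.99 for A_51_P343429 and -3.14 to -1.76 for A_55_P2032445. The count over all retained probes was 202. It was 106 with a fold change of at least 2 and 117 to 188 with 1 array left out, lowest without the fourth wild-type array, and low also without the second (131) or the third (129). With the sample number as a replicate block it was 71, and 1 in place of 2 probes of the iron and heme genes was called. Leaving out 1 array gave 2 to 3 such probes. All of them were probes of Slc25a37, which was selected on this contrast, so these counts are no test of it. The numbers do not pair the samples, since the deviations of same-numbered arrays correlated at -0.29, -0.69, 0.03 and 0.41, and 0 of the 4 Mrp4-null arrays correlated best with its own number. No other alternative moved either count by more than 1.5 times. The cause of these changes was not tested.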

Other observations

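Much of the spread within genotypes was common to many probes. The main component of the deviations from the genotype means held 56.3% of their variation over all retained probes, with scores of -0.34, 0.63, 0.10 and -0.40 on the Mrp4-null arrays and 0.12, -0.35, 0.39 and -0.15 on the wild-type arrays. Slc25a28 followed it closely (Pearson correlation 0.976 over 8 arrays), and Slc40a1 ran against it (-0.988). Hmox1 (0.104) and Alas2 (0.281) followed it little. The median size of this correlation was 0.782 over the 16 probes other than Slc25a37 and 0.707 over all retained probes. These are descriptions without a test.

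Of the other marker lists, the pigment epithelium genes had mean log2 signals of 9.46 to 9.91 under the Mrp4-null label and 9.38 to 9.87 in wild-type. The endothelium genes ranged from 7.33 to 7.85 and from 7.65 to 8.00, and the Müller glia genes from 12.60 to 12.81 and from 12.74 to 12.86.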
